A study of Homo sapiens with 6 samples.

Results

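The genes described here encode the machinery that carries out transcription: the subunits of RNA polymerases I, II and III, the general transcription factors, the TAF proteins (TATA-binding protein associated factors) and the Mediator complex. They were chosen by name alone, as every gene whose current symbol is POLR1, POLR2 or POLR3 plus a letter, GTF2 or GTF3 plus further characters, TAF plus digits, or MED plus digits. Of 11963 genes with a named probe set on the array, 88 met this rule when further characters after the stem were allowed (TAF4B, TAF1A, MED13L and POLR2J4, for example), with 142 probe sets between them. Read strictly, with nothing after the letter or digits, the rule leaves 77 genes. By class there were 26 RNA polymerase subunits, 15 GTF2 factors, 6 GTF3 factors, 20 TAF proteins and 21 Mediator subunits, and 2 of the 88, GTF2H2B and POLR2J4, are annotated as transcribed pseudogenes. POLR2A and GTF3C4, given as the marker genes of the set, were both measured.

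Transcript levels were measured on oligonucleotide arrays in MDA-MB-231, a human triple-negative breast cancer cell line, in 2 groups of 3 samples. The dinaciclib group (replicates F, 4 and 5) was collected 12 h after dinaciclib, a small-molecule inhibitor of cyclin-dependent kinases including CDK9, had been added in DMSO to the medium, and the baseline group (replicates E, 4 and 5) was collected at 0 h. The labels give no dose, no solvent-only control and no sample kept for 12 h without the drug, so drug, solvent, handling and time cannot be told apart. Whether the 3 samples of a group are separate cultures is not stated, and the p-values cover the spread among them, which may be technical. In these bulk samples, fewer cells carrying a transcript and less of that transcript per cell cannot be told apart either.

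Polymerase I transcribes ribosomal RNA, polymerase II messenger RNA and many small nuclear RNAs, and polymerase III transfer RNA, 5S ribosomal RNA and other short RNAs. Each polymerase has subunits of its own and subunits it shares, and each needs its own factors to find a promoter: TFIID and Mediator act with polymerase II, SL1 with polymerase I and TFIIIC with polymerase III. The long tail of POLR2A is the part of polymerase II that CDK7 and CDK9 phosphorylate as transcription starts and moves into elongation.

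The deposited values are intensities on a linear scale, and each gene is represented by its brightest probe set. Median intensities over the array were 43.3, 46.8 and 40.6 in dinaciclib F, 4 and 5 and 53.3, 66.2 and 60.8 in baseline E, 4 and 5, so the dinaciclib arrays were dimmer as a whole and the median log2 change over all genes was -0.26. This shift was -0.02 after quantile normalization, 0.19 after centring on array medians and -0.45 after centring on spiked control probe sets. The samples with a letter in their name, F and E, read 1155 and 736 on an 18S ribosomal RNA control, against 8273 to 9061 in the 4 numbered samples. The cell line's markers VIM, CD44, CAV1 and AXL were bright in both groups (mean intensities of 3739 to 8944). EGFR averaged 179 after dinaciclib and 1002 at baseline. Of 5 luminal epithelial markers, listed as low or absent in the line, PGR and CDH1 averaged 1.92 and 6.29 after dinaciclib and 2.91 and 8.12 at baseline. ESR1 averaged 14.8 after dinaciclib and 26.8 at baseline. EPCAM and GATA3 were not near the floor, with 213 and 294 after dinaciclib and 209 and 350 at baseline. Summed over 3 measured leukocyte markers, intensities were 50.6 to 70.4 after dinaciclib and 44.5 to 66.8 at baseline, and over 5 luminal epithelial markers 473 to 566 after dinaciclib and 486 to 663 at baseline. Their part in the results was not tested.

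After dinaciclib, falls past the threshold were found among subunits of polymerase III (3 of 7), its factor TFIIIC (2 of 5), TFIIH (2 of 5), the TAF proteins (6 of 20) and Mediator (6 of 21). None was found among the 7 subunits of polymerase II alone or the 7 shared ones. Of the 88 genes, 22 fell and 4 rose at an adjusted p under 0.05 (limma, Benjamini-Hochberg over all rows of the array). Of all genes, 16.4% fell and 3.54% rose by the same test. The 4 that rose were GTF3C4, POLR1F, TAF4B and MED18. In 40 of the 88 all dinaciclib samples were below all baseline samples and in 12 all were above, where 30.7% and 9.36% of all genes did so. The machinery genes were also brighter than most genes, with a median of 8.58 log2 units against 6.41 over all genes. When dim rows were left out before the fit, 32 of 83 remaining genes fell and 10 rose (38.6% and 12.0%), and 35.4% and 8.88% of all remaining genes did, so among bright genes the machinery genes were called about as often as others. In that filtered set 39 genes were lower and 12 higher without overlap (47.0% and 14.5%), beside 40.9% and 12.7% of all remaining genes. After quantile normalization 15 machinery genes rose and 20 fell (8.89% and 13.4% of all genes), after array-median centring 20 rose and 18 fell (16.3% and 10.9%), and after control centring 3 rose and 18 fell (0.853% and 11.5%). The 4 numbered samples alone gave 3 rises and 15 falls (1.92% and 9.86%). Of the 26 calls, 17 (14 falls and 3 rises) stood whichever sample was left out, and leaving out baseline 4 or baseline 5 left 14 falls. Of all genes, 7.51% fell without baseline 4 and 7.73% without baseline 5. All 26 of 26 kept their direction under the 3 other array scalings. Of the 62 genes not called, 28 changed sign under at least 1 of those scalings, so no direction is given for them unless stated.

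**Figure D1:**
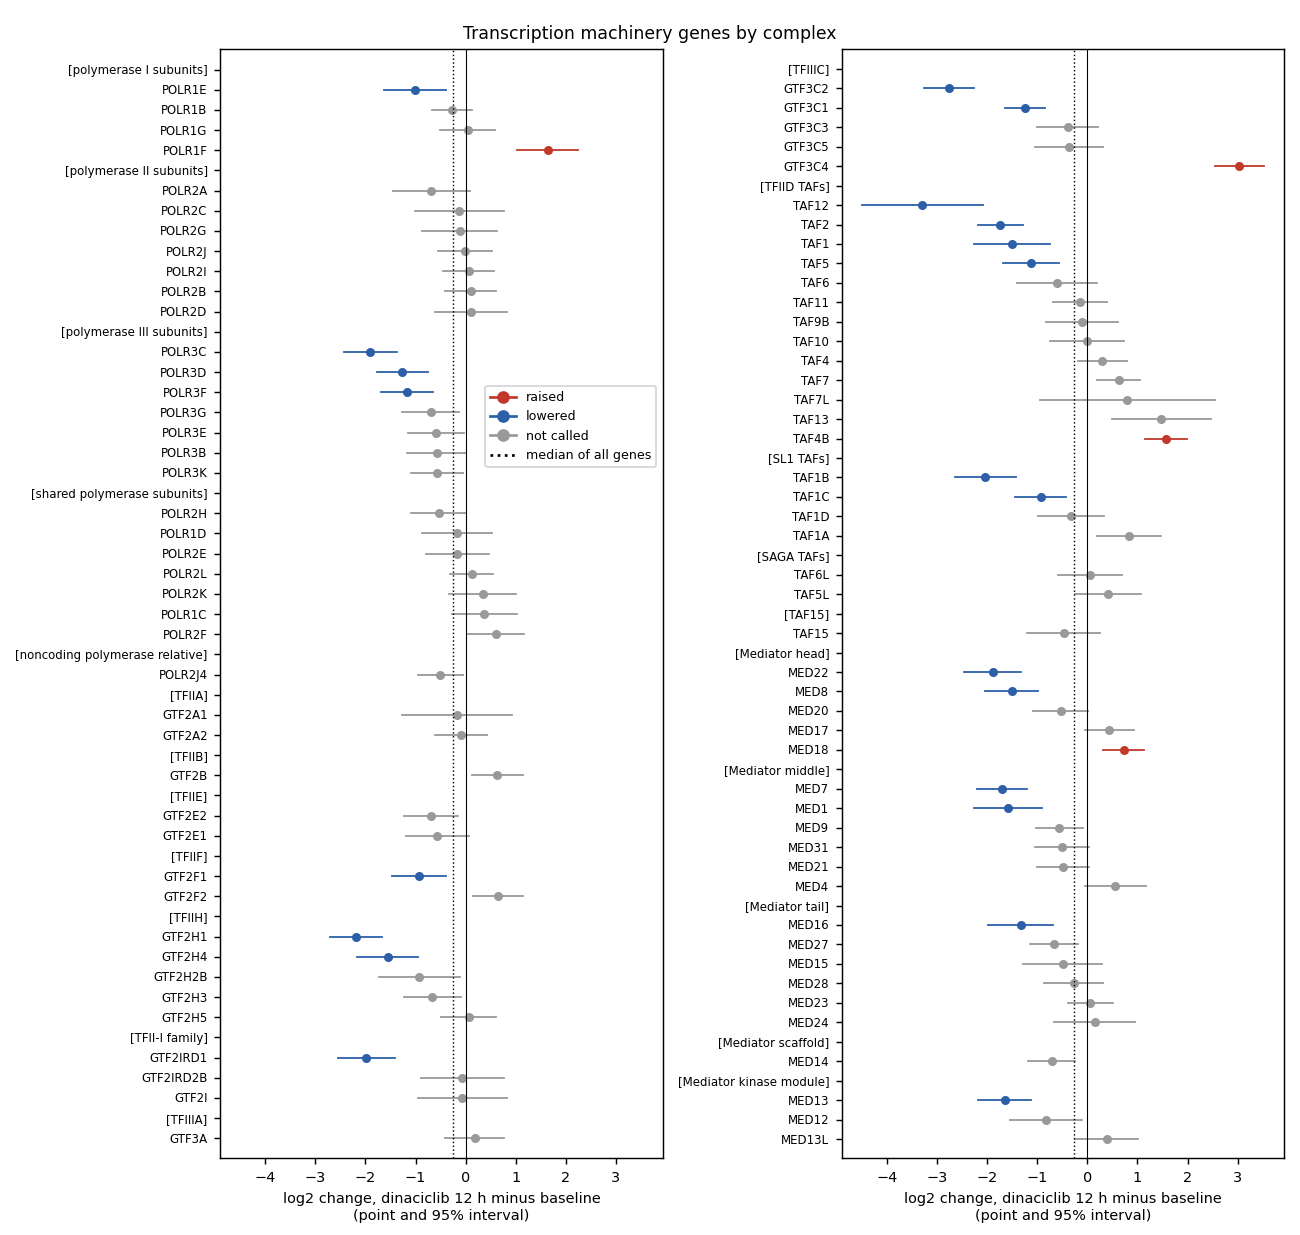
Log2 change (dinaciclib 12 h minus baseline) of each of the 88 genes on the x axis, with its 95% interval from the limma fit, grouped by complex. Red points rose, blue points fell and grey points did not pass, and the dotted line marks the median of all genes at -0.26; the polymerase III subunits all lie left of that line, the polymerase II subunits scatter around 0, and GTF3C4 stands at the right edge at 3.04.

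By class, the calls rested on small numbers, where 16.4% of all genes fell and 3.54% rose. RNA polymerase subunits had 4 falls and 1 rise among 26, GTF2 factors 4 falls and 0 rises among 15, GTF3 factors 2 falls and 1 rise among 6, TAF proteins 6 falls and 1 rise among 20, and Mediator 6 falls and 1 rise among 21. The median log2 change was -0.17 for polymerase subunits, -0.56 for GTF2 factors, -0.38 for GTF3 factors, -0.13 for TAF proteins and -0.53 for Mediator, beside -0.26 for all genes. Only for GTF2 factors and Mediator did this lie below the median gene under every array scaling and whichever sample was left out, and the classes were not tested against each other. Relative to the median gene, the TAF median was 0.13, and -0.21 under the strict reading of the naming rule.

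**Figure D2:**
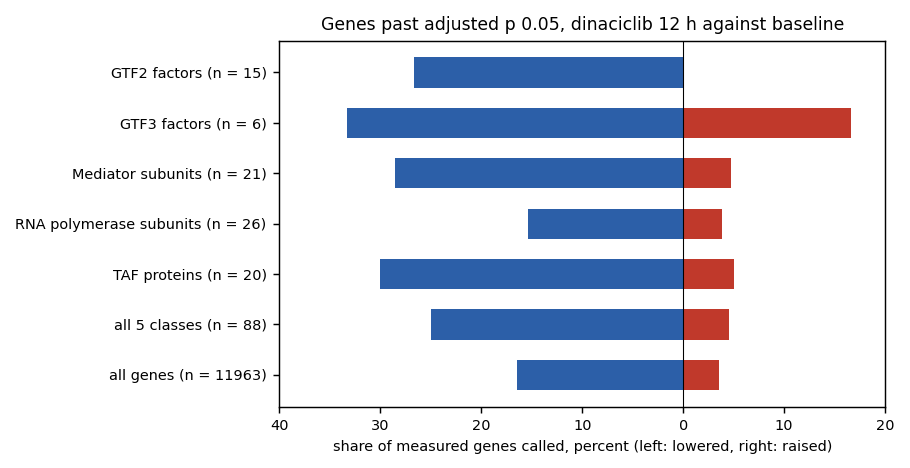
Share of measured genes past the threshold in each class, in percent, with lowered genes to the left and raised genes to the right of 0; the bottom bar gives all 11963 genes (16.4% lowered, 3.54% raised). TAF proteins, GTF3 factors and Mediator have the longest bars to the left, but each bar rests on few genes (n beside each name).

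Among the polymerases, the subunits found only in polymerase III were all lower on their brightest probe sets. On the brightest probe set of each of 7 measured polymerase III subunits, all 3 dinaciclib samples lay below all 3 baseline samples. The log2 changes were -1.90 to -0.56. Of the 7, 3 fell past the threshold. Among all genes, 30.7% were lower without overlap and 16.4% fell past the threshold (40.9% and 35.4% with dim rows left out). POLR3C and POLR3F, which with POLR3G form the trimer that joins the enzyme to its initiation factor, and POLR3D, which with POLR3E acts in initiation and termination, were the ones that passed. POLR3C read 125, 144 and 97.6 in dinaciclib F, 4 and 5, against 417, 511 and 437 in baseline E, 4 and 5 (log2 change -1.90, standard error 0.22, limma adjusted p = 0.00476). The groups were far apart. The second POLR3C probe set fell too, with a log2 change of -1.51. POLR3D read 27.6, 27.4 and 25.0 in dinaciclib F, 4 and 5, against 68.3, 76.8 and 53.1 in baseline E, 4 and 5 (log2 change -1.26, standard error 0.21, limma adjusted p = 0.011). It did not pass in the 4 numbered samples alone. POLR3F read 145, 134 and 121 in dinaciclib F, 4 and 5, against 244, 356 and 309.8 in baseline E, 4 and 5 (log2 change -1.17, standard error 0.21, limma adjusted p = 0.0149). The groups were apart for POLR3F, but its call was lost when either numbered sample of either group was left out (largest limma adjusted p = 0.0624).

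The remaining polymerase III subunits, POLR3B (the second-largest subunit), POLR3E (the partner of POLR3D), POLR3G and POLR3K (which acts in RNA cleavage and termination), had log2 changes of -0.69 to -0.56 and limma adjusted p-values of 0.0943 to 0.163. POLR3G read 288, 306 and 193 in dinaciclib F, 4 and 5, against 407, 439 and 406 in baseline E, 4 and 5. The log2 changes of all 7 subunits stayed below 0 after quantile normalization (-1.49 to -0.21), array-median centring (-1.45 to -0.11) and control centring (-2.09 to -0.75), and in the numbered samples alone (-1.98 to -0.56). With dim rows left out, 6 of the 7 passed (35.4% of all remaining genes fell under that filter). Only 2 of the 7 passed in the numbered samples alone, and 2 when any 1 numbered sample was left out. Of all genes, 9.86% fell in the numbered samples alone, and 7.51% to 10.6% with 1 numbered sample left out.

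Of the 7 measured subunits found only in polymerase II, none passed, where 16.4% of all genes fell and 3.54% rose. With dim rows left out none of them passed either, where 35.4% of all remaining genes fell and 8.88% rose. The median log2 change of the 7 was -0.01, beside -0.69 for the polymerase III subunits, and the 2 sets were not tested against each other. POLR2A, the largest subunit and the carrier of the tail that CDK9 phosphorylates, read 193, 196 and 99.7 in dinaciclib F, 4 and 5, against 246, 297 and 218 in baseline E, 4 and 5 on its brightest probe set (log2 change -0.69, standard error 0.32, limma adjusted p = 0.2). The dinaciclib samples were all lower than baseline, dinaciclib 5 was the lowest, and the change lay within the range of the 4 uncalled polymerase III subunits. The POLR2A interval ran from -1.46 to 0.08 on the log2 scale, and its other 2 probe sets were near the floor of the array, with mean intensities of 11.5 and 5.60 after dinaciclib and 6.40 and 2.57 at baseline. POLR2B, the second-largest subunit, read 2807, 3488 and 2713 in dinaciclib F, 4 and 5, against 2368, 3065 and 2976 in baseline E, 4 and 5 (log2 change 0.10, standard error 0.21). Its groups overlapped. POLR2C, POLR2D, POLR2G, POLR2I and POLR2J, smaller subunits of the core and of the stalk, had log2 changes of -0.12 to 0.11 with overlapping groups and limma adjusted p-values of at least 0.841. The outermost bounds of the 7 95% intervals were -1.46 (POLR2A) and 0.83 (POLR2D), and other intervals were narrower, such as -0.41 to 0.60 for POLR2B. For each subunit, changes within its own interval were not excluded. After array-median centring 1 of the 7, POLR2B, passed as raised.

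Of 7 subunits shared between polymerases, 0 passed as deposited, where 16.4% of all genes fell and 3.54% rose. With dim rows left out POLR2F rose and 0 fell, where 8.88% of all remaining genes rose and 35.4% fell. After array-median centring 3 rose (POLR1C, POLR2F and POLR2L), and after quantile normalization POLR2F rose and POLR2H fell. POLR2E, POLR2F, POLR2H, POLR2K and POLR2L, which all 3 enzymes contain, had log2 changes of -0.54 (POLR2H) to 0.61 (POLR2F). POLR2L, the brightest of them, read 6408, 6746 and 6304 in dinaciclib F, 4 and 5, against 5384, 6125 and 6404 in baseline E, 4 and 5. A second, much dimmer POLR2L probe set was lower in all dinaciclib samples without passing (log2 change -0.77, limma adjusted p = 0.0558 with every probe set as a row of its own). POLR2F read 1362, 1544 and 1438 in dinaciclib F, 4 and 5, against 737, 1195 and 965 in baseline E, 4 and 5, with no overlap (limma adjusted p = 0.129). POLR1C and POLR1D, the assembly pair common to polymerases I and III, had log2 changes of 0.38 (standard error 0.27) and -0.17 (standard error 0.29), and the sign of POLR1D turned with the array scaling. The difference between these changes was 0.55 on the log2 scale, with POLR1D lower, and reached the smallest p that 3 against 3 samples allow (exact permutation test, two-sided, p = 0.1).

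Polymerase I subunits moved both ways. POLR1F, a stalk subunit that contacts the initiation factor RRN3, rose and read 197, 260.3 and 246 in dinaciclib F, 4 and 5, against 68.6, 98.3 and 60.4 in baseline E, 4 and 5 (log2 change 1.64, standard error 0.25, limma adjusted p = 0.00902). Every dinaciclib sample lay far above the highest baseline sample. POLR1F did not pass in the numbered samples alone (log2 change 1.70). POLR1E, which forms a heterodimer with POLR1G on the enzyme's flank, read 293, 238 and 170.0 in dinaciclib F, 4 and 5, against 407, 502 and 479 in baseline E, 4 and 5 (log2 change -1.01, standard error 0.25, limma adjusted p = 0.0387). This fall did not pass under any other array scaling (log2 change -0.63 after quantile normalization), with a batch covariate for letter against number, or when a sample other than dinaciclib F was left out. Its partner POLR1G (log2 change 0.04, standard error 0.23) and POLR1B, the second-largest subunit (-0.28, standard error 0.17), did not pass. POLR2J4, a pseudogene related to POLR2J, did not pass either (-0.50, standard error 0.18).

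**Figure D3:**
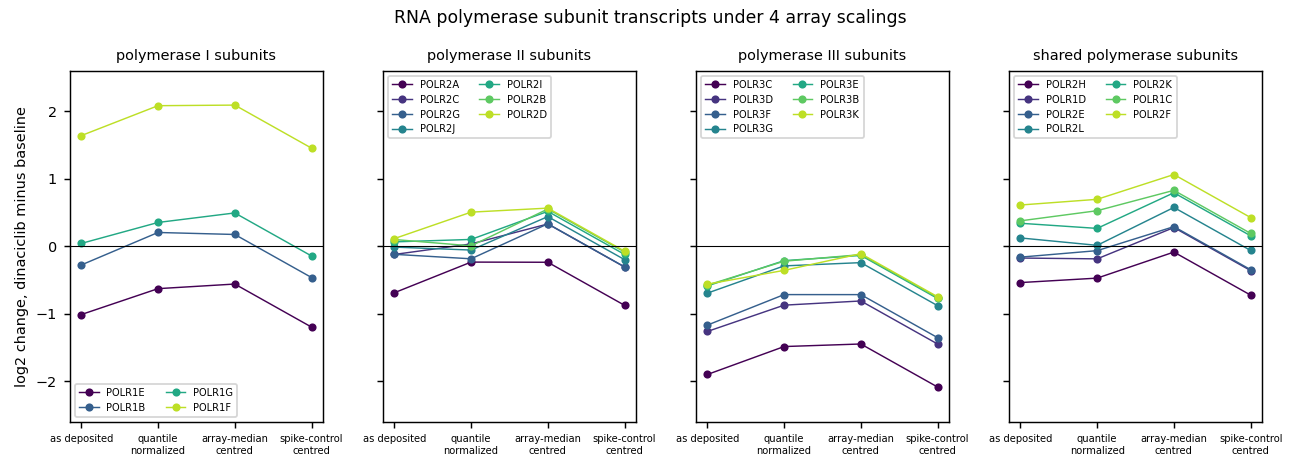
Log2 change (dinaciclib minus baseline, y axis) of each RNA polymerase subunit under 4 scalings of the arrays (x axis), with 1 line per gene; points stand for fitted changes over 6 arrays. All 7 polymerase III lines stay below 0 under every scaling, 6 of the 7 polymerase II lines lie on either side of 0 depending on the scaling, and POLR1F stays above 1.4.

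TFIIIC, which binds the promoters of transfer RNA genes, held a large rise and a large fall. GTF3C4, a subunit of the module that binds the B box of those promoters, rose. It read 1339, 1448 and 1384 in dinaciclib F, 4 and 5, against 138, 175 and 198 in baseline E, 4 and 5, or 10.44 ± 0.06 log2 units after dinaciclib and 7.41 ± 0.26 at baseline (SD, n = 3 each). The 3 dinaciclib values were close to each other and several times above all baseline values. The log2 change was 3.04, with a standard error of 0.21 and a 95% interval of 2.54 to 3.53 (limma adjusted p = 0.0028), and GTF3C4 has 1 probe set on this array. It passed under every alternative run, with log2 changes of 3.29 after quantile normalization and 2.93 with log2(value + 16).

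GTF3C2, another subunit of the B-box module, fell. It read 78.8, 78.9 and 57.3 in dinaciclib F, 4 and 5, against 479.9, 509 and 471 in baseline E, 4 and 5 (log2 change -2.76, standard error 0.20, limma adjusted p = 0.00299), so the groups were far apart. A second probe set of GTF3C2 fell as well, with a log2 change of -3.02, but the third gave 178, 183 and 117 in dinaciclib F, 4 and 5, against 81.0, 112 and 104 in baseline E, 4 and 5 (log2 change 0.67, limma adjusted p = 0.144 with every probe set as a row of its own). The 3 probe sets of GTF3C2 therefore did not share a direction. GTF3C1, the largest subunit and the one that reads the B box, read 144, 149 and 145 in dinaciclib F, 4 and 5, against 333, 342 and 370.5 in baseline E, 4 and 5 (log2 change -1.25, standard error 0.17, limma adjusted p = 0.00635). Its second probe set fell alike (log2 change -1.30). Its 3 dinaciclib values were nearly the same, far below each baseline value. The A-box subunits GTF3C3 (log2 change -0.39, standard error 0.25) and GTF3C5 (-0.36, standard error 0.28) overlapped between groups and did not pass. TFIIIA, encoded by GTF3A and needed for 5S ribosomal RNA, did not pass either (0.18, standard error 0.25). The changes of GTF3C4 and GTF3C2, a pair picked after their values were seen, differed by 5.80 on the log2 scale, and the within-sample log2 ratio of GTF3C4 to GTF3C2 was 4.07 to 4.57 after dinaciclib and -1.79 to -1.25 at baseline.

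The promoters of the 4 genes that rose are printed here, with that of GTF3C2 as the TFIIIC partner that fell. Each is the 250 bases before the RefSeq start site (GRCh38.p14), written 5′ to 3′ on the gene's strand, and 68 of the 88 genes had a promoter in that table. Capitals mark matches on either strand to 6 motifs: TATAAA (the TATA box), CCAAT (the CCAAT box), GGGCGG (the GC box), CCGGAA (ETS core), CACGTG (E-box) and TGACGTCA (cyclic AMP response element). None of the 6 contains another.
GTF3C4 (chr9:132669785-132670034, plus strand): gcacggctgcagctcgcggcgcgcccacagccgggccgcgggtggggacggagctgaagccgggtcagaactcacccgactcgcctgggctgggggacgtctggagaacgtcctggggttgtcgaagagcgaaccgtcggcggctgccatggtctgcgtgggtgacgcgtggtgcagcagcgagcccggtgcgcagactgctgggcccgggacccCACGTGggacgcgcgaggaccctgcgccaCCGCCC
TAF4B (chr18:26226195-26226444, plus strand): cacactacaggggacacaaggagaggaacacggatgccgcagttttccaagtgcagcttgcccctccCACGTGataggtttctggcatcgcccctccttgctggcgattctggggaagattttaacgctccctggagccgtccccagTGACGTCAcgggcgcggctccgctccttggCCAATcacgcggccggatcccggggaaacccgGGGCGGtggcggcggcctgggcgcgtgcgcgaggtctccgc
POLR1F (chr7:19709038-19709287, minus strand): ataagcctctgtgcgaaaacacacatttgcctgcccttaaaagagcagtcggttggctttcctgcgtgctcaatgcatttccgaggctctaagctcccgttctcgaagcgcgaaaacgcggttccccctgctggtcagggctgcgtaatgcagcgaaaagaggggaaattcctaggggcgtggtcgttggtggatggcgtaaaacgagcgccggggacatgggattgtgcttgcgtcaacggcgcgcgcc
MED18 (chr1:28328790-28329039, plus strand): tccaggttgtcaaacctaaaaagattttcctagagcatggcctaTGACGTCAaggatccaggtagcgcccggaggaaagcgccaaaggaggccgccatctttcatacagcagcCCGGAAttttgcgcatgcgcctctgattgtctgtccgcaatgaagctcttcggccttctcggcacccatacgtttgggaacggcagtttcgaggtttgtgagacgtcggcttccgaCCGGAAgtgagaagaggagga
GTF3C2 (chr2:27356765-27357014, minus strand): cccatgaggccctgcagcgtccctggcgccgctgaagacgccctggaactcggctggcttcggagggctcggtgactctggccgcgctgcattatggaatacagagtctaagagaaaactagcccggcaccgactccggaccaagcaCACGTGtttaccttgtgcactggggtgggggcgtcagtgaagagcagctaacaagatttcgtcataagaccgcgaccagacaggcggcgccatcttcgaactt
GTF3C4 and GTF3C2, which moved in opposite directions, each had 1 CACGTG, and so did TAF4B. TAF4B and MED18 each had 1 TGACGTCA, a word in 1.77% of 27305 promoters of the same length and in 4 of the 68 machinery promoters. POLR1F matched none of the 6. Over the 68 promoters, CCGGAA was present in 41.2% (14.8% of all promoters), CACGTG in 17.6% (6.49%), GGGCGG in 55.9% (42.3%), CCAAT in 30.9% (33.0%) and TATAAA in 5.88% (11.1%). CCGGAA was in 7 of 16 lowered and 20 of 48 uncalled promoters, and CCAAT in 9 of 16 lowered and 11 of 48 uncalled ones. These matches describe the sequence in this window only, and start sites used in these cells were not measured.

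Among the general factors of polymerase II, TFIIH held falls in its core. Of 5 measured TFIIH genes, 2 fell, 0 rose and 3 did not pass, where 16.4% of all genes fell. With dim rows left out 4 of the 5 fell, beside 35.4% of all remaining genes. These small counts were not tested against those shares. GTF2H1, the p62 subunit of the TFIIH core, read 251, 250.03 and 183 in dinaciclib F, 4 and 5, against 925, 1138 and 1057 in baseline E, 4 and 5 (log2 change -2.19, standard error 0.21, limma adjusted p = 0.00354). The dinaciclib values were far below every baseline value, and its second probe set fell by 2.28 on the log2 scale. GTF2H4, the p52 subunit that holds the translocase ERCC3, read 152, 192 and 125 in dinaciclib F, 4 and 5, against 362, 516 and 497 in baseline E, 4 and 5 (log2 change -1.55, standard error 0.25, limma adjusted p = 0.0106). GTF2H3, another core subunit, had no overlap between groups but did not pass (-0.66, standard error 0.24). Nor did the pseudogene GTF2H2B (-0.92, standard error 0.33), and GTF2H5, the smallest subunit, had a log2 change of 0.06 (standard error 0.22). Of the TFIIH genes outside the naming rule, ERCC3 also fell (log2 change -1.28, standard error 0.31, limma adjusted p = 0.0355), but it did not pass under any other array scaling or with any 1 sample left out. The helicase gene ERCC2 (-0.12, standard error 0.23) and the kinase genes CDK7 (0.18, standard error 0.21), CCNH (0.30, standard error 0.19) and MNAT1 (-0.19, standard error 0.22) did not pass.

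Of the 2 genes of TFIIF, 1 fell, where 16.4% of all genes fell (35.4% with dim rows left out). GTF2F1, its large subunit RAP74, fell and read 165, 228 and 194 in dinaciclib F, 4 and 5, against 306, 419 and 396 in baseline E, 4 and 5 (log2 change -0.93, standard error 0.22, limma adjusted p = 0.0343). It was called on 2 of 3 probe sets, but did not pass under any of the other array scalings, in the numbered samples alone, or without any sample other than baseline E. GTF2F2, the small subunit RAP30, read 850.1, 1043 and 974 in dinaciclib F, 4 and 5, against 527, 724 and 596 in baseline E, 4 and 5, all dinaciclib samples higher, and did not pass (log2 change 0.64, standard error 0.21, limma adjusted p = 0.082). GTF2B, which encodes TFIIB, behaved alike and read 1180.0, 1475 and 1174 in dinaciclib F, 4 and 5, against 704, 946 and 815 in baseline E, 4 and 5 (log2 change 0.64, standard error 0.21, limma adjusted p = 0.0865). GTF2F2 and GTF2B both passed as raised after quantile normalization and array-median centring. TFIIE (GTF2E1 and GTF2E2, log2 changes of -0.56 and -0.69) and TFIIA (GTF2A1 and GTF2A2, -0.17 and -0.09) had no call. GTF2IRD1, a relative of the signal-responsive factor TFII-I that is not part of the basal machinery, fell and read 92.9, 73.1 and 62.2 in dinaciclib F, 4 and 5, against 261, 358 and 285 in baseline E, 4 and 5 (log2 change -1.98, standard error 0.24, limma adjusted p = 0.00499). It passed whichever sample was left out. GTF2I itself (-0.06, standard error 0.37) and GTF2IRD2B (-0.07, standard error 0.34) were dim and did not pass.

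Among TFIID TAFs, 4 of 13 fell and 1 rose, where 16.4% of all genes fell and 3.54% rose. With dim rows left out 3 of 11 fell and 3 rose, beside 35.4% and 8.88% of all remaining genes. TAF4B, a paralog of TAF4 known from germ cells and B cells, rose and read 142, 153 and 136 in dinaciclib F, 4 and 5, against 45.7, 49.8 and 47.4 in baseline E, 4 and 5 (log2 change 1.57, standard error 0.17, limma adjusted p = 0.00435). The groups were tight and far apart, while TAF4 itself read 663, 737 and 561 in dinaciclib F, 4 and 5, against 465, 560.2 and 567 in baseline E, 4 and 5 and did not pass (0.30, standard error 0.20). TAF2, which contacts the initiator element around the start site, read 316, 394 and 358 in dinaciclib F, 4 and 5, against 1115, 1291 and 1155 in baseline E, 4 and 5 (log2 change -1.74, standard error 0.19, limma adjusted p = 0.00424). TAF12, a histone-fold partner of TAF4, read 6.54, 3.14 and 1.12 in dinaciclib F, 4 and 5, against 28.0, 54.4 and 37.8 in baseline E, 4 and 5, so that its dinaciclib values lie near the floor of the array. It fell (log2 change -3.29, standard error 0.50, limma adjusted p = 0.00861), but the size depends on the floor, and with log2(value + 16) the change was -1.50.

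TAF5, which has WD40 repeats and joins several TAFs, read 396, 365 and 262 in dinaciclib F, 4 and 5, against 638, 766 and 811 in baseline E, 4 and 5 (log2 change -1.13, standard error 0.23, limma adjusted p = 0.0215). TAF1, the largest TAF, read 21.6, 13.1 and 21.6 in dinaciclib F, 4 and 5, against 38.1, 59.6 and 68.7 in baseline E, 4 and 5 (log2 change -1.51, standard error 0.31, limma adjusted p = 0.0221). Both calls were lost when any of the numbered samples was left out, TAF5's also after control centring and TAF1's after array-median centring. TAF5L, the SAGA counterpart of TAF5, had a log2 change of 0.41 (standard error 0.27), and the difference between the changes of TAF5 and TAF5L was -1.54 (exact permutation test, two-sided, p = 0.1, the smallest this design allows). TAF6 and its counterpart TAF6L did not pass (-0.61 and 0.05), with a difference of -0.66 (exact permutation test, two-sided, p = 0.4).

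A pair of TAFs lay just outside the threshold on the high side. TAF13, which pairs with TAF11, read 94.1, 238 and 172 in dinaciclib F, 4 and 5, against 38.1, 66.1 and 68.1 in baseline E, 4 and 5 (log2 change 1.48, standard error 0.41, limma adjusted p = 0.0525). TAF7, which binds TAF1, read 3338, 3709.5 and 3586 in dinaciclib F, 4 and 5, against 2102, 2499 and 2309 in baseline E, 4 and 5 (log2 change 0.62, standard error 0.18, limma adjusted p = 0.057). All dinaciclib samples were higher for both. Both passed as raised after quantile normalization, after array-median centring and with the batch covariate, and TAF13 also in the numbered samples alone. TAF11 and TAF9B had log2 changes of -0.15 and -0.11, and their groups overlapped, as did those of TAF10 (-0.0049, standard error 0.30) and of the dim TAF7L (0.79, standard error 0.72). TAF15, an RNA-binding protein of the FET family that is also found with TFIID, did not pass (-0.47, standard error 0.30).

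SL1, the polymerase I factor, had 2 falls among 4 TAFs, where 16.4% of all genes fell. With dim rows left out 2 of the 4 fell and 1 rose, beside 35.4% and 8.88% of all remaining genes. TAF1B, which resembles TFIIB, fell on both of its probe sets and read 161, 192 and 168 in dinaciclib F, 4 and 5, against 521, 808 and 861 in baseline E, 4 and 5 on the brighter one (log2 change -2.04, standard error 0.25, limma adjusted p = 0.00527). TAF1C read 57.7, 74.8 and 72.4 in dinaciclib F, 4 and 5, against 116, 124 and 154 in baseline E, 4 and 5 (log2 change -0.93, standard error 0.21, limma adjusted p = 0.0292). TAF1C lost its call under each other array scaling, with the mean of its probe sets, in the numbered samples alone, and without any sample other than baseline E. Its second, dimmer probe set did not fall, with mean intensities of 24.6 after dinaciclib and 20.9 at baseline (log2 change 0.16). TAF1A was higher in all dinaciclib samples without passing and read 632, 987 and 919 in dinaciclib F, 4 and 5, against 371, 534 and 521 in baseline E, 4 and 5 (log2 change 0.82, standard error 0.26, limma adjusted p = 0.0811), though it passed after quantile normalization (log2 change 1.07) and with the batch covariate. TAF1D had a log2 change of -0.32 (standard error 0.27).

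**Figure D4:**
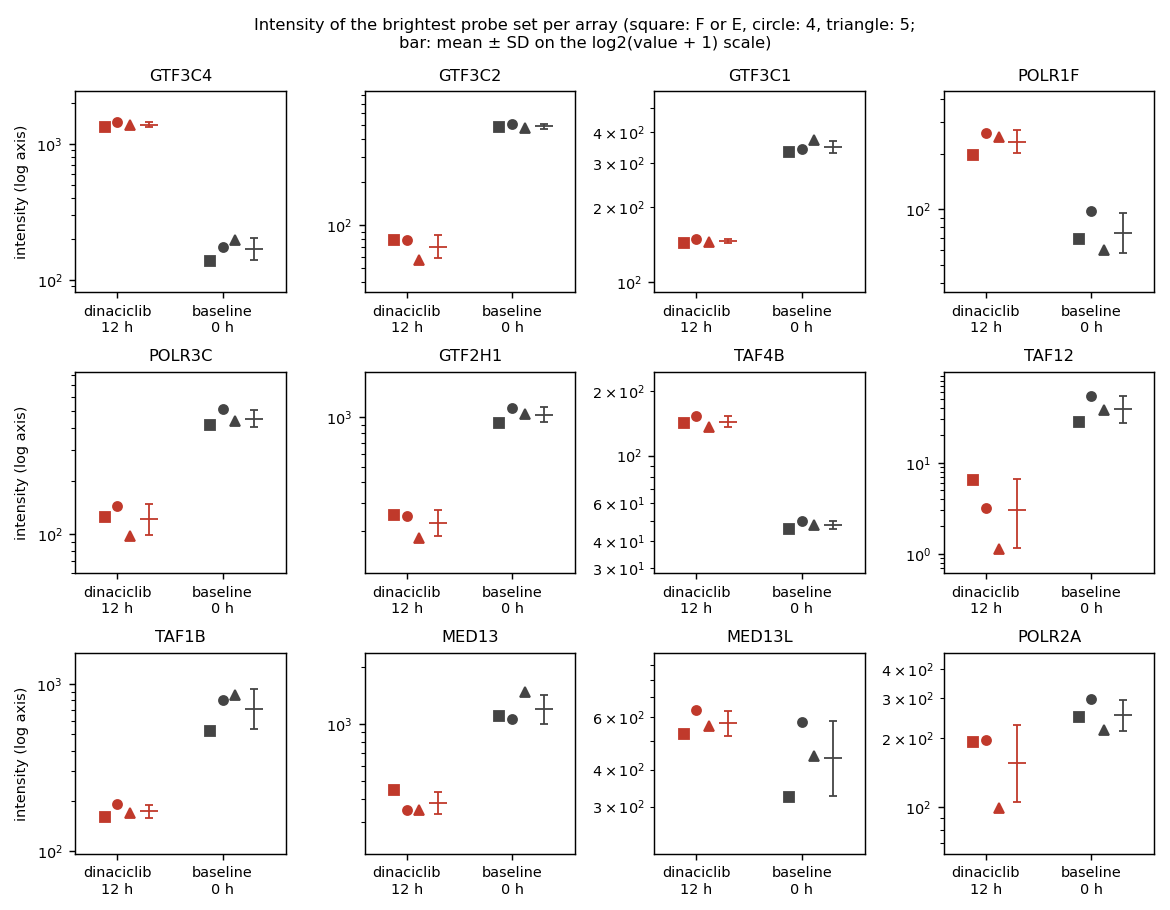
Intensity per array (y axis, log scale, a range of its own in each panel) of 12 genes in dinaciclib 12 h (left, red) and baseline (right, grey) samples, with the mean ± SD beside the points. GTF3C4, POLR1F and TAF4B lie above all baseline samples, GTF3C2, GTF3C1, POLR3C, GTF2H1, TAF12, TAF1B and MED13 below them, MED13L overlaps, and POLR2A is lower with a wide spread after dinaciclib.

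In Mediator, falls were spread over modules. Of 6 measured middle subunits 2 fell, of 5 head subunits 2 fell and 1 rose, of 6 tail subunits 1 fell, and of 3 kinase-module genes 1 fell. Of all genes, 16.4% fell and 3.54% rose (35.4% and 8.88% with dim rows left out), and these small counts were not tested against those shares. In the middle module, MED7 read 158, 174 and 143 in dinaciclib F, 4 and 5, against 429, 599.9 and 541 in baseline E, 4 and 5 (log2 change -1.71, standard error 0.21, limma adjusted p = 0.00515) and its second probe set fell too (log2 change -1.71). MED1, through which nuclear receptors bind Mediator, read 366, 396 and 245 in dinaciclib F, 4 and 5, against 769, 1188 and 1069 in baseline E, 4 and 5 (log2 change -1.59, standard error 0.28, limma adjusted p = 0.0131). It did not pass without baseline 4 or 5 (largest limma adjusted p = 0.0525). MED9, MED21 and MED31 had no overlap between groups (log2 changes of -0.56 to -0.49) but did not pass, and MED4 had all dinaciclib samples higher and did not pass (0.56, standard error 0.25).

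In the head, MED22 read 72.5, 54.8 and 43.9 in dinaciclib F, 4 and 5, against 204, 215 and 213 in baseline E, 4 and 5 (log2 change -1.89, standard error 0.23, limma adjusted p = 0.00515), so the groups were far apart. MED8, which tethers MED18 and MED20 to the head, read 124, 147 and 98.3 in dinaciclib F, 4 and 5, against 324, 349 and 375 in baseline E, 4 and 5 (log2 change -1.51, standard error 0.22, limma adjusted p = 0.00734). Of its 3 probe sets, 1 was called, and the call did not hold in the numbered samples alone. MED18 rose and read 179, 167 and 179 in dinaciclib F, 4 and 5, against 112, 100.5 and 104 in baseline E, 4 and 5 (log2 change 0.72, standard error 0.17, limma adjusted p = 0.0318). MED18 did not pass in the numbered samples alone, after control centring, or without any sample other than baseline E. Its partner MED20 (-0.53, standard error 0.23) and MED17 (0.44, standard error 0.20), the central head subunit, did not pass.

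In the kinase module, the paralogs MED13 and MED13L, either of which links the module to core Mediator, had different values. MED13 read 444, 351 and 350.4 in dinaciclib F, 4 and 5, against 1095, 1059 and 1467 in baseline E, 4 and 5 (log2 change -1.65, standard error 0.22, limma adjusted p = 0.0063) and fell on both of its probe sets. MED13L read 527, 636 and 558 in dinaciclib F, 4 and 5, against 323, 579.7 and 443 in baseline E, 4 and 5 (log2 change 0.39, standard error 0.26, limma adjusted p = 0.375), and none of its 4 probe sets passed. The within-sample log2 ratio of MED13 to MED13L was -0.86 to -0.25 after dinaciclib and 0.87 to 1.76 at baseline, a difference of -2.04 (exact permutation test, two-sided, p = 0.1, the smallest this design allows). MED12, which activates the module's kinase, had no overlap between groups and did not pass (-0.83, standard error 0.30), though a dimmer one of its 4 probe sets fell. Of the kinase genes themselves, which the naming rule leaves out, CDK19 fell (log2 change -1.06, standard error 0.18, limma adjusted p = 0.0128), and CDK8 (0.39, standard error 0.20) and CCNC (-0.59, standard error 0.22) did not pass.

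In the tail, MED16 read 62.2, 118 and 90.6 in dinaciclib F, 4 and 5, against 209, 236 and 221 in baseline E, 4 and 5 (log2 change -1.33, standard error 0.27, limma adjusted p = 0.0199). Of its 5 probe sets 1 was called, and the call did not hold after quantile normalization, with the mean of its probe sets (log2 change -0.70), in the numbered samples alone, or without baseline 4, baseline 5 or dinaciclib 5. MED14, the backbone of the complex, was chosen for mention after its values were seen. It read 344, 367 and 350.1 in dinaciclib F, 4 and 5, against 488, 669 and 600.5 in baseline E, 4 and 5 and lay just outside the threshold (log2 change -0.71, standard error 0.20, limma adjusted p = 0.0519), and its second-brightest probe set gave a like change (-0.69). Another, dimmer probe set of MED14 rose to 92.9, 102 and 72.8 in dinaciclib F, 4 and 5, against 34.2, 40.1 and 40.1 in baseline E, 4 and 5 (log2 change 1.19, limma adjusted p = 0.0146 with every probe set as a row of its own). The MED14 probe sets thus did not share a direction. The other tail genes MED15, MED23, MED27 and MED28 had log2 changes of -0.67 (MED27) to 0.06 (MED23) and did not pass, and MED24 was near the floor of the array in both groups (mean intensities of 3.36 after dinaciclib and 3.12 at baseline).

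Genes that work with this machinery but carry other names gave 8 falls and 1 rise among 30 measured, with a median log2 change of -0.19, where 16.4% of all genes fell, 3.54% rose and the median was -0.26. The factors that assemble polymerases in the cytoplasm had 4 of 6 lowered: RPAP1 (-1.56, standard error 0.37), RPAP2 (-1.12, standard error 0.27), RPAP3 (-0.87, standard error 0.18) and GPN2 (-1.40, standard error 0.28). Each of these 4 calls was lost with at least 1 sample left out, and those of RPAP1, RPAP2 and RPAP3 also after quantile normalization. BTAF1, which strips TBP from DNA, fell (-0.93, standard error 0.20), as did SNAPC5 of the small nuclear RNA factor SNAPc (-1.29, standard error 0.25). The calls of BTAF1, SNAPC5 and CDK19 did not hold without baseline 4 or without baseline 5. TFB2M, which starts transcription in mitochondria, was the only one of the 30 that rose. It read 2601, 3824 and 3627 in dinaciclib F, 4 and 5, against 808, 1373 and 1169 in baseline E, 4 and 5 (log2 change 1.599, standard error 0.28, limma adjusted p = 0.0129), and it did not pass after control centring. TBP itself (-0.31, standard error 0.20), the TFIIIB genes BRF1 (0.02, standard error 0.20 on its brightest probe set, while 2 dimmer ones rose) and BRF2 (-0.73, standard error 0.22), and the polymerase I factors UBTF (-0.96, standard error 0.34) and RRN3 (0.43, standard error 0.24) did not pass.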

How the data were processed

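The deposited table holds 1 linear intensity per probe set and array, per the file headers and the values. The method, background correction and scaling behind these intensities are not given in the sources used here. Of 22277 probe sets, 62 controls were left out, and names came from the platform annotation, matched by gene identifier to RefSeq (GRCh38.p14, names and promoters only). Values were tested as log2(value + 1) in limma 3.58.1 (lmFit, eBayes) under R 4.3.3, with group as the only term, over 15114 rows (11963 genes, each by its brightest probe set, and 3151 rows without a single gene), with Benjamini-Hochberg adjustment and a threshold of 0.05. Changes on this scale are understated for dim genes.

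The members, the partner list and the alternatives were chosen with earlier results of these data known. Named genes are POLR2A, GTF3C4, the 3 largest called rises and falls of each complex, measured paralog pairs and called partners; others were named after their values were seen to complete each complex. Alternatives were 3 other scalings, log2(value + 16), no dim rows (under the 40th percentile), the mean of probe sets, a variance trend, a batch covariate, the numbered samples alone, a replicate block, a strict reading of the naming rule and each sample left out. Added after seeing the data were every probe set as a row of its own and the set without members under an intensity of 16 in both groups.

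On simulated data over the 15114 rows of this comparison, with 200 rows changed, 0% were recovered at a log2 change of 1, 53% at 2 and 77.5% at 3, and 0%, 4.5% and 8.28% of the calls made were false. A far smaller share of rows was changed in the simulation than was called in the data (20.0% of genes). The adjusted threshold was therefore harder to reach in the simulation, and its shares do not give the recovery in this comparison. MED18, for example, was called here at a log2 change of 0.72. The number of arrays limits the precision. Exact permutation tests over samples served single differences. Python 3.11.15 and matplotlib 3.10.9 served for summaries and figures.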

Additional observations from a re-analysis of the deposited data

How the results depend on the processing

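As deposited, 4 machinery genes rose and 22 fell. The count of rises depended on scaling and on the variance model, with 15 rises and 20 falls after quantile normalization (8.89% and 13.4% of all genes), 20 and 18 after array-median centring (16.3% and 10.9%), 3 and 18 after control centring (0.853% and 11.5%), 9 and 28 with log2(value + 16) (5.39% and 22.4%), 10 and 32 of 83 with dim rows left out (8.88% and 35.4%), 10 and 30 with a variance trend (5.64% and 22.4%), and 8 and 24 with the batch covariate (5.01% and 19.1%). The numbered samples alone gave 3 rises and 15 falls (1.92% and 9.86% of all genes), of which 2 and 15 were also called from all samples. Leaving out 1 sample gave 3 to 4 rises and 14 to 23 falls (1.55% to 2.64% and 7.51% to 15.4% of all genes). There were 14 falls without baseline 4 and 14 without baseline 5, where 7.51% and 7.73% of all genes fell.

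Class medians relative to the median gene also moved. GTF3 factors went to 0.086 and polymerase subunits to -0.044 after quantile normalization (-0.12 and 0.09 as deposited). TAF proteins (0.13 as deposited) gave -0.0075 after quantile normalization, 0.029 with log2(value + 16), -0.034 with the mean of probe sets, 0.0032 in the numbered samples and -0.21 under the strict naming rule. Mediator (-0.27) gave -0.33 with log2(value + 16) and -0.38 in the numbered samples. GTF2 factors (-0.30) gave -0.11 after quantile normalization. With 1 sample left out, GTF2 factors ranged from -0.49 (without dinaciclib F) to -0.16 (without dinaciclib 5), GTF3 factors from -0.20 to -0.018, Mediator from -0.37 to -0.24, polymerase subunits from -0.064 to 0.19 and TAF proteins from 0.030 to 0.27.

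Of 62 uncalled genes, 28 changed sign under another array scaling. Among the genes chosen by the naming rule for the text, uncalled log2 changes turned sign for POLR1D (0.28 with median centring, -0.43 to 0.015 with 1 sample left out, above 0 only without baseline 4), POLR2A (0.12 as the mean of its probe sets) and TAF6L (-0.14 with control centring, -0.42 as the mean of probe sets, -0.29 in the numbered samples, -0.20 to 0.17 with 1 sample left out, below 0 without dinaciclib F or baseline E). The causes were not tested. The replicate block, with F and E taken as the third level, gave 6 rises and 19 falls (3.76% and 15.5% of all genes). Deviations from the group means correlated at 0.083 for samples 4, 0.076 for samples 5 and 0.169 for F with E, against -0.11 to 0.038 for the other combinations. Since F and E do not share a name, the samples were not treated as paired in the main fit. Samples 4, samples 5 and F with E gave the highest of these correlations, so pairing is not excluded.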
